A study of Mus musculus with 8 samples.

Results

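Antiviral interferon-stimulated genes are here a set of 38 genes. Many of their products sense viral RNA, cut it, block its translation or stop virus assembly, and others have other or less defined functions. The genes were examined in sorted small intestinal epithelial cells (IECs) of CD1d-KO and wild-type (WT) mice. The members were taken by gene symbol from the deposited count table, and all 38 were found among its 25239 genes. CD1d shows lipids to natural killer T (NKT) cells. CD1d-KO mice have no such cells. The comparison asks how the epithelium differs in their absence.

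There were 4 CD1d-KO samples, with genotype CD1d1/2 KO in the labels, and 4 WT samples, whose genotype field reads C57BL/6Jax. The labels do not give the strain background of the knockout. No sample was treated. The study's methods give mice of 7 to 10 weeks, males and females, matched between genotypes. Each sample held 150000 cells from crypts of the proximal small intestine, sorted as EpCAM+ (epithelial) cells that lacked the leukocyte marker CD45, the endothelial marker CD31 and the erythroid marker Ter119. Samples came from 2 experiments, and the labels do not say which sample came from which.

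Type I and type III interferons bind receptors on epithelial cells and activate the factor ISGF3, which holds STAT2 and IRF9. ISGF3 binds the interferon-stimulated response element (ISRE) in promoters and switches on the antiviral genes. Interferon gamma, a main product of NKT cells and T cells, acts at a different element, the gamma-activated site (GAS), and raises an overlapping set of genes. In the gut, epithelial cells respond mainly to type III interferon during virus infection, and keep a low level of these genes in health.

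Most antiviral genes had a lower mean level in CD1d-KO IECs, but few differences passed the test. DESeq2 called 5 of the 38 members lower (adjusted p under 0.05 over 15446 genes) and 0 higher. Over all genes tested, 4.03% were called, 2.38% as lower and 1.65% as higher. The 5 were Ubd, Parp14, Sp100, Oas2 and Mx2. A further 10 members had an unadjusted p under 0.05, which 15.3% of all genes had, and all 38 members passed the filter on low counts. Log2 fold changes ranged from -2.36 (Ubd) to 0.48 (Ifit3b), with a median of -0.33 against 0.00 over all genes, and 92.1% of members had a value below 0 against 49.7% of all genes. The 3 members with a value above 0 were Ifit3b, Isg20 and Cmpk2. The number of members called depended on single libraries. It was 3 without CD1d-KO 1 (1.76% of all genes were then called lower), 2 without CD1d-KO 2 (1.25%), 11 without CD1d-KO 3 (2.7%) and 9 without CD1d-KO 4 (2.39%). It was 4 without WT 1 (1.64%), 4 without WT 2 (1.35%), 3 without WT 3 (1.73%) and 3 without WT 4 (2.21%). DESeq2 with a score of stomach markers as a covariate called 0 members (0.367% of all genes as lower), with 2 members at an unadjusted p under 0.05. The stomach scores of the genotypes did not overlap (-3.3 to 0.27 in CD1d-KO against 1.04 to 4.2 in WT). The score and the genotype therefore cannot be told apart in this fit, and a call lost in it does not separate them. With this covariate 18 of the 38 members had a value below 0, against 35 without it. Shares of all genes at an unadjusted p under 0.05 or below 0 are not given for this fit.

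**Figure D1:**
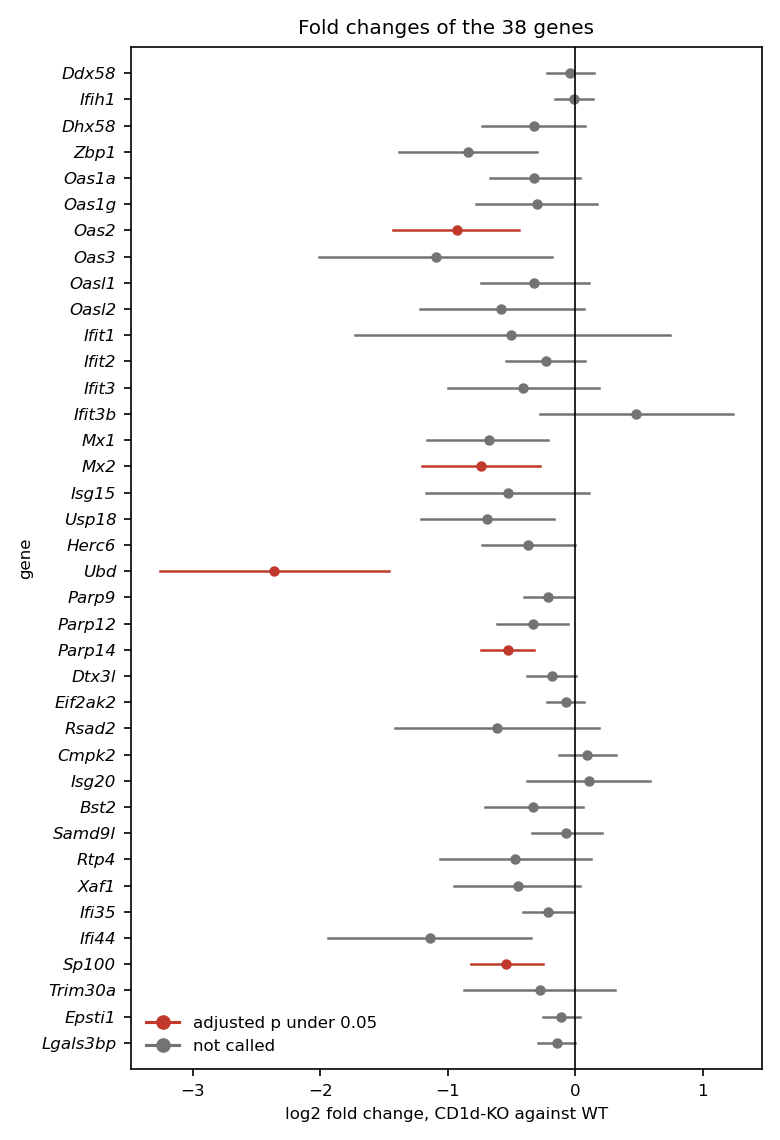
Log2 fold change of CD1d-KO against WT for each of the 38 genes (points) with its 95% interval (lines), genes in order of role. The 5 called genes are red, and 35 of the 38 points lie below 0.

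The libraries stood apart in ways that touch these genes. Total counts ranged from 23610266 to 31629435. No 2 samples of a genotype agreed within sampling noise (chi-square per degree of freedom 10.2 to 39.5 over 12857 genes). For the targeted gene Cd1d1, CD1d-KO samples held 8, 3, 5 and 0 raw counts and WT samples 81, 70, 94 and 50. The Y-linked gene Ddx3y had 1926 and 2156 raw counts in CD1d-KO 1 and 2, 1 in WT 2 and 0 in the other samples. The single count in WT 2 was treated as absence, so 2 CD1d-KO and 4 WT samples were taken as lacking Y-linked counts. The labels give no sex per sample, and these counts differ from the matching of sex that the methods state. Normalised counts (counts divided by the size factor of the library) of 10 epithelial markers summed to between 333966 and 355894 in CD1d-KO and between 323388 and 358227 in WT, so the sorted cells carried the defining markers of epithelium.

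CD1d-KO 1 and 2 were the lowest samples in most members. Samples were divided by their Y-linked counts, not by the antiviral genes. The 2 CD1d-KO samples with Y-linked counts were the 2 lowest of all 8 samples in 31 of 38 members, against 8.22% of all genes. Both lay below CD1d-KO 3 and 4 in 34 of 38 members, against 23.2% of all genes. The mean of CD1d-KO 1 and 2, as a percentage of the WT mean, had a median of 60.8% over members (10.3% for Ubd to 116% for Isg20). For CD1d-KO 3 and 4 the median was 95.9% (29.0% for Ubd to 178% for Ifit3b). Over the 13691 genes whose mean normalised count reached 10, the medians were 99.8% and 100%. In 16 members both CD1d-KO 3 and CD1d-KO 4 lay inside the WT range. The share of all genes for which this held was not computed, so whether 16 is many or few is not known. What goes with Y-linked counts cannot be told apart from other features of CD1d-KO 1 and 2, since no WT sample had more than 1 count of Ddx3y. Among the 6 samples without them, 2 members were called, Ubd and Parp14 (1.35% of all genes were then called lower). In that fit 5 members had an unadjusted p under 0.05 and 27 a value below 0. Shares of all genes for these counts are not given for that fit.

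**Figure D2:**
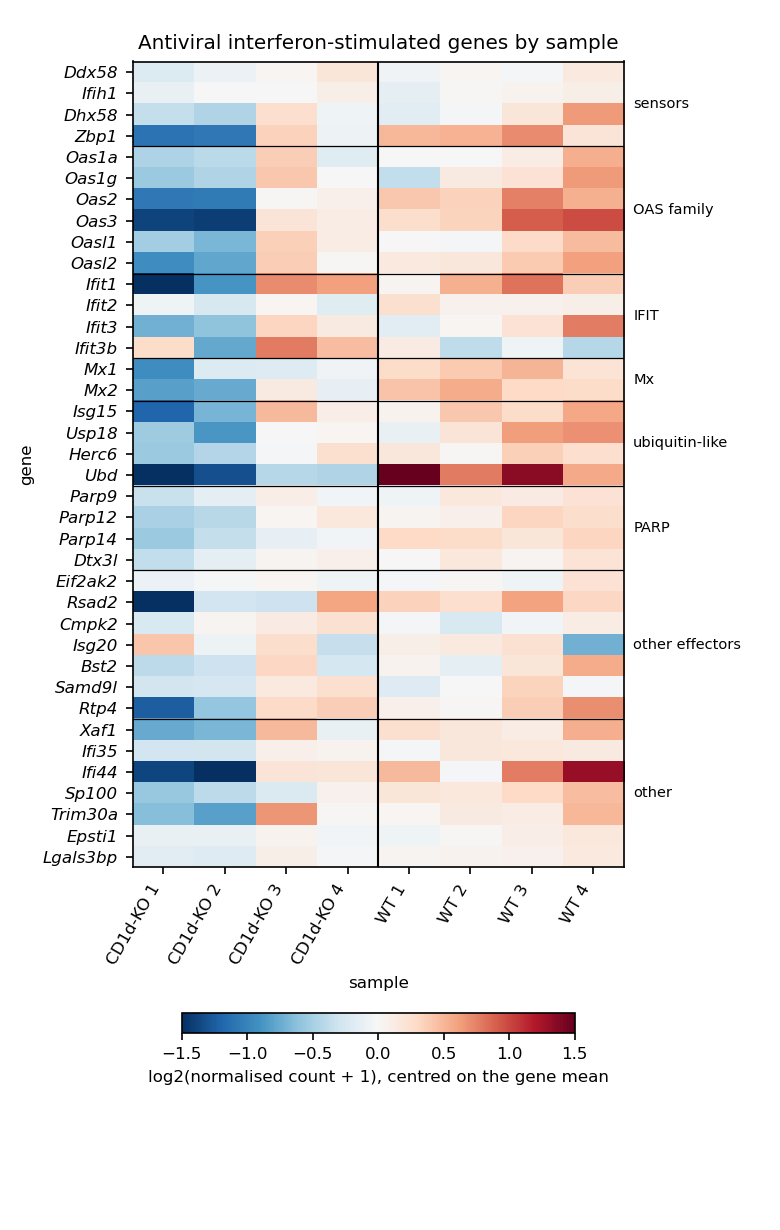
Level of each of the 38 genes (rows, grouped by role) in each of the 8 samples (columns), as the log2 of normalised counts plus 1 less the mean of the gene, with blue lower and red higher. CD1d-KO 1 and 2 are the 2 lowest samples in 31 of the 38 rows, against 8.22% of all genes tested. In 16 rows both CD1d-KO 3 and 4 lie inside the WT range, and the share over all genes was not computed.

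A score, the mean over the 38 members of log2(normalised count + 1) after centring each gene, gave each sample a single value. It was -0.66, -0.52, 0.17 and 0.05 in CD1d-KO 1 to 4 against 0.14, 0.15, 0.31 and 0.36 in WT 1 to 4. CD1d-KO 3 lay above WT 1 and WT 2, so the genotypes overlapped. The difference of means was -0.48 (CD1d-KO -0.24 ± 0.41 and WT 0.24 ± 0.11, SD, n = 4), and among the samples without Y-linked counts it was -0.13. No test was made on the score.

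Some markers of other cells were called lower in CD1d-KO. The score of 23 leukocyte markers was -0.86, -0.92, -0.54 and -0.27 in CD1d-KO against 2.02, 0.73, 0.13 and -0.29 in WT. Of 19 tested leukocyte markers 5 were called lower, against 2.38% of all genes. The leukocyte scores of the genotypes overlapped, with CD1d-KO 4 just above WT 4. Summed normalised counts of these markers were 1380, 1939, 10430 and 8776 in CD1d-KO 1 to 4 against 14735 to 21359 in WT. Cd74, which epithelium also expresses, gave most of the sum in WT and in CD1d-KO 3 and 4. Its normalised counts were 298.6, 896.2, 9507 and 7712 in CD1d-KO 1 to 4 against 18626, 13157, 13393 and 17692 in WT 1 to 4. CD1d-KO 1 and 2 were thus also the lowest samples in Cd74. Without Cd74 and Itgam the sums were 233.3 to 324.5 and 320.3 to 1564. Cd4 and Siglech had 0 counts in all 4 CD1d-KO samples, which allows up to 3 counts in each. WT 4 had the lowest leukocyte score in WT and the highest antiviral score. Its summed leukocyte count was 18855, of which Cd74 gave 17692, against 21359, 14870 and 14735 in WT 1 to 3. Without Cd74 and Itgam the sums were 320.3 in WT 4 and 1564, 683.3 and 373.3 in WT 1 to 3. The score of 12 stomach markers was -3.25, -3.30, -3.05 and 0.27 in CD1d-KO against 1.04, 1.24, 4.20 and 2.85 in WT. Their summed counts were 779.1 to 1704 and 2664 to 17754. Of 11 tested stomach markers 6 were called lower, against 2.38% of all genes, and no stomach marker was at 0 in all samples. CD1d-KO 3 had a stomach score close to those of CD1d-KO 1 and 2 and an antiviral score inside the WT range. Genes of dissociation stress (36636 to 78033 in CD1d-KO against 37991 to 81959 in WT, 0 of 10 called) and of endothelium and stroma (15.36 to 27.72 and 11.53 to 45.16, 0 of 1 called) overlapped between the genotypes. The stress gene Hspa1a had 5986, 10372, 266.9 and 956.2 normalised counts in CD1d-KO 1 to 4 against 7257, 1945, 2786 and 12954 in WT 1 to 4. Hspa1b and, by less, Jun were also higher in CD1d-KO 1 and 2 than in CD1d-KO 3 and 4. Atf3 went the other way, and the rest of the list was mixed. The part of leukocyte or stomach RNA in the antiviral differences was not tested beyond the stomach covariate, and since the stomach scores of the genotypes do not overlap, the 2 cannot be told apart. In bulk samples, fewer cells of a type and less RNA per cell also cannot be told apart.

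**Figure D3:**
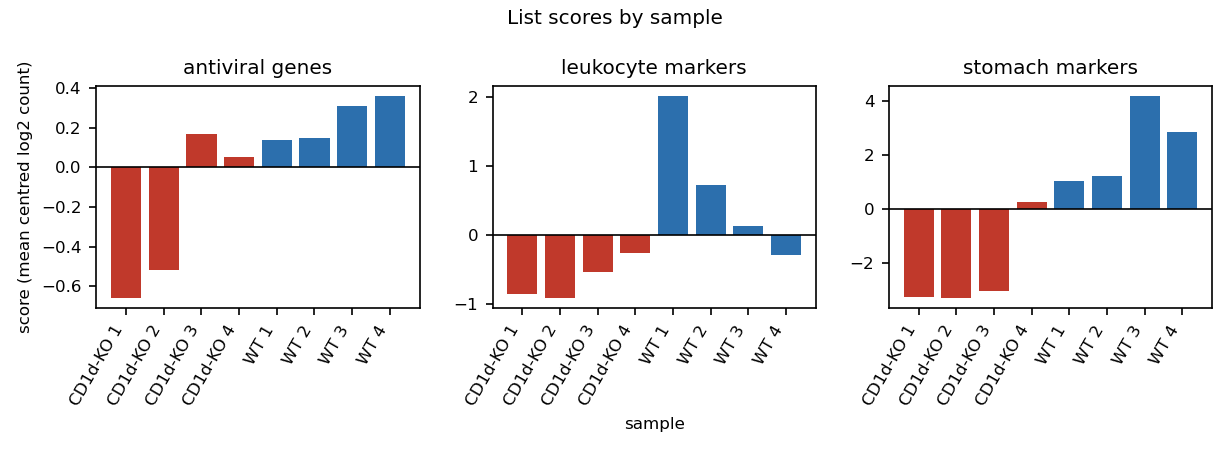
Scores of the 38 antiviral genes, 23 leukocyte markers and 12 stomach markers (mean centred log2 count, bars from 0) in each CD1d-KO (red) and WT (blue) sample; the vertical scales differ. Antiviral scores of CD1d-KO 1 to 4 are -0.66, -0.52, 0.17 and 0.05. Their stomach scores are -3.25, -3.3, -3.05 and 0.27.

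Promoter sequences are shown for the members whose ISRE is best seen and for 2 called members without one. RefSeq promoters (GRCm38.p6, 300 bases, from 250 before to 50 after the start) were matched for 29 of the 38 members. Dhx58, Mx1, Mx2, Oas2, Parp14, Parp9, Rtp4, Usp18 and Zbp1 had no entry. The ISRE core was searched as GAAA, any 2 bases and GAAA on both strands, with overlapping matches kept. Stretches are printed 5′ to 3′ on the gene's strand, with matches of the core, on either strand, in capitals. Isg15 is from chr4:156200859-156200918 (minus strand), and Ifit1 from chr19:34640769-34640828 (plus). Ifit3 is from chr19:34583359-34583428 (plus) and Ifit3b from chr19:34607755-34607824 (plus). Oas1a is from chr5:120907526-120907585, Oas1g from chr5:120887614-120887673 and Oas3 from chr5:120777700-120777759 (all minus).
Isg15: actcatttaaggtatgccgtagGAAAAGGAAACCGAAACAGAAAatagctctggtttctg
Ifit1: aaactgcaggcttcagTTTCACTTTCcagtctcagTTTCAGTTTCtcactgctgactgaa
Ifit3: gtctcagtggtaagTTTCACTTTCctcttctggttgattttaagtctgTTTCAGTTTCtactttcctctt
Ifit3b: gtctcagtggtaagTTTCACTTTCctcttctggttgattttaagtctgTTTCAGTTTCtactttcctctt
Oas1a: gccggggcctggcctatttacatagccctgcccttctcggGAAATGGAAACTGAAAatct
Oas1g: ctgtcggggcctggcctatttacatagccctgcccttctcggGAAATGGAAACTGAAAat
Oas3: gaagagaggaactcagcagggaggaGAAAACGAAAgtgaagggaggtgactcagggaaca
The stretches of Ifit3 and Ifit3b are identical over all 70 bases, and those of Oas1a and Oas1g share a run of 56 of 60 bases.

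Ubd and Sp100, the 2 called members with a RefSeq promoter, had no match of the ISRE core in the window, and their 100 bases before the start are therefore in lower case. Ubd is from chr17:37193792-37193891 (plus strand) and Sp100 from chr1:85649888-85649987 (plus).
Ubd: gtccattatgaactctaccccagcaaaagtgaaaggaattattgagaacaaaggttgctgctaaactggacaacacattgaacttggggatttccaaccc
Sp100: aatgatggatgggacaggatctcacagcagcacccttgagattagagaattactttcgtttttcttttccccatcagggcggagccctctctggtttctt
No match says only that these letters are not in the window.

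The ISRE core was present in 13 of 29 members (44.8%), against 3.99% of 27025 genes with a promoter and 3.61% of the 12078 tested genes among them. In 10 of the 13 it lay before the start, which held for 34.5% of members and 3.46% of all genes. A GAS core, searched as TTC, any 3 bases and GAA on both strands, was present in 6 of 29 members (20.7%) and in 9.55% of all genes. Members with an ISRE core had a median log2 fold change of -0.32 (-1.09 to 0.48, 0 of 13 called) and those without had -0.27 (-2.36 to 0.11, 2 of 16 called). The ranges overlap. A match of the core is a description of the sequence and not evidence of binding.

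**Figure D4:**
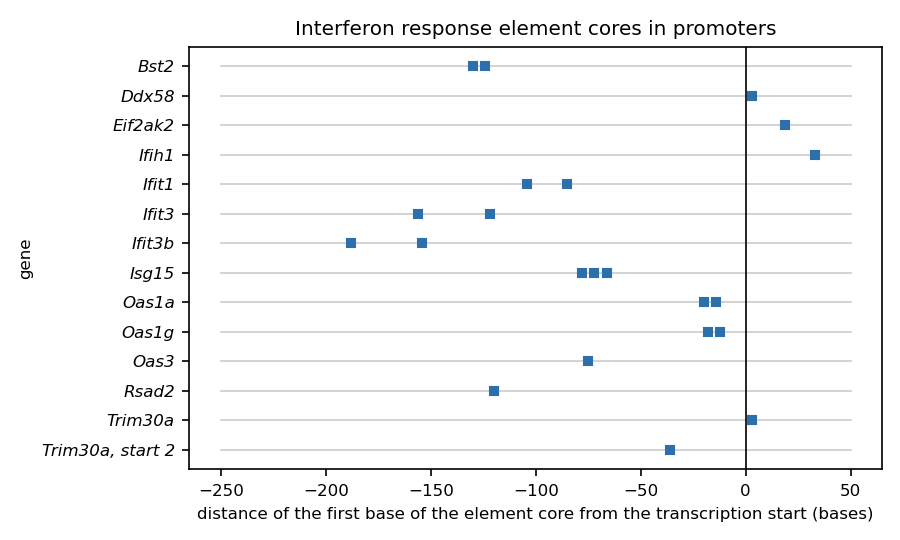
Position of each ISRE core (squares) relative to the transcription start (0) in the 13 genes that hold one, within a window from 250 bases before to 50 bases after the start (grey lines). The core lies before the start in 10 of the 13 genes, and several hold overlapping or repeated cores.

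Of the ubiquitin-like group, the called member was Ubd (mm10 chromosome 17, 37193892 to 37196101, plus strand), also called FAT10, a modifier that sends proteins to the proteasome and is induced by interferon gamma and TNF. Its normalised counts were 3.58, 9.52, 18.6 and 18.2 in CD1d-KO 1 to 4 against 106, 44.0, 65.9 and 37.9 in WT 1 to 4. All CD1d-KO samples lay below all WT samples, and the spread within WT was wide. Ubd fell by 2.36 on the log2 scale (SE 0.46, DESeq2 adjusted p = 4.1e-05), to a CD1d-KO mean that was 19.5% of the WT mean (12.5 ± 7.26 and 63.5 ± 30.8, SD, n = 4). It was called in 14 of 15 alternative fits, with -1.79 (adjusted p = 0.00939) when samples with Y-linked counts were left out, and lost its call with the stomach covariate (-2.10, adjusted p = 0.395).

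Isg15 is the founding antiviral ubiquitin-like modifier. Its normalised counts were 26.8, 38.1, 88.0 and 67.2 in CD1d-KO against 64.8, 82.8, 75.6 and 94.1 in WT. CD1d-KO 1 and 2 lay below every WT sample and CD1d-KO 3 and 4 within their range, and Isg15 was not called (-0.53 ± 0.32, SE, DESeq2 adjusted p = 0.467). The count is uncertain, since a transcript of Gm9706 is 95.2% identical to it. Usp18, which removes ISG15 and damps interferon signalling, had 47.4, 37.2, 68.4 and 70.1 against 63.8, 78.6, 107 and 111 normalised counts (-0.69, adjusted p = 0.132). Herc6, the mouse ligase for ISG15, had a log2 fold change of -0.37 (adjusted p = 0.325). Of the 4 genes of the group, 1 was called lower, against 2.38% of all genes. The scores of the genotypes did not overlap (-1.20 to 0.01 in CD1d-KO against 0.35 to 0.65 in WT). Ubd, called on these same counts, is part of this score, while Isg15, Usp18 and Herc6 each overlapped between the genotypes. A score without Ubd was not computed.

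The PARP group holds ADP-ribosyltransferases and Dtx3l, the ubiquitin ligase that pairs with PARP9. Parp14 (chromosome 16, 35832878 to 35871382, minus strand), a mono-ADP-ribosyltransferase of the interferon response, had normalised counts of 1808, 2081, 2446 and 2600 in CD1d-KO against 3284, 3225, 3031 and 3346 in WT. The lowest WT sample lay above the highest CD1d-KO sample. Parp14 fell by 0.53 on the log2 scale (SE 0.11, DESeq2 adjusted p = 8.17e-05), to 69.3% of the WT mean, and was called in 14 of 15 alternatives. The value was -0.35 (adjusted p = 0.00321) with only samples lacking Y-linked counts and -0.33 (adjusted p = 0.611) with the stomach covariate, where the call was lost.

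Parp9 and Dtx3l lie on the same chromosome close to Parp14 and share a start region on opposite strands. Their exons overlap, pairs in the overlap were not assigned, and strand was not used, so both counts are uncertain. Parp9 had normalised counts of 1913, 2194, 2591 and 2357 in CD1d-KO against 2309, 2695, 2629 and 2818 in WT (-0.21 ± 0.10, SE, DESeq2 adjusted p = 0.29). Dtx3l had 2612, 3086, 3463 and 3570 against 3357, 3755, 3460 and 3879 (-0.18 ± 0.10, adjusted p = 0.386). In both genes CD1d-KO 3 and 4 lay inside the WT range. Parp12, an RNA-binding member of the family, had 843, 891, 1211 and 1323 against 1215, 1252, 1486 and 1421 (-0.33, adjusted p = 0.192). Of the 4 genes, 1 was called lower, against 2.38% of all genes.

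**Figure D5:**
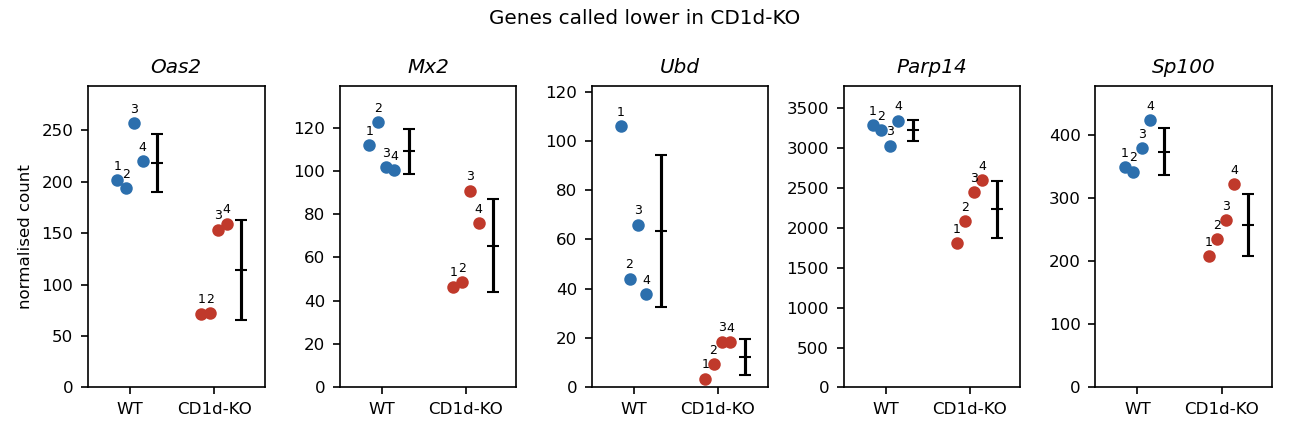
Normalised counts of the 5 called genes in each WT (blue) and CD1d-KO (red) sample, numbered by replicate, with mean and SD (black, n = 4). The genotypes do not overlap in any of the 5, which were called on these same counts. CD1d-KO 1 and 2 are the lowest samples in each. Over all genes tested, 5.52% lay entirely lower in CD1d-KO, and in 8.22% CD1d-KO 1 and 2 were the 2 lowest.

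Oligoadenylate synthetases make the second messenger that activates RNase L, which degrades RNA. Oas2 (chromosome 5, 120730333 to 120749848, minus strand) had normalised counts of 71.5, 72.4, 153.5 and 159.4 in CD1d-KO against 201, 194, 257 and 220.1 in WT. The CD1d-KO samples fell into a low and a middle pair, both below all WT samples. Oas2 changed by -0.93 ± 0.25 (SE, DESeq2 adjusted p = 0.0115), to 52.3% of the WT mean. The call was lost without CD1d-KO 2 (adjusted p = 0.0672), without WT 3 (0.071), with edgeR (0.105), with the stomach covariate (-0.15, adjusted p = 0.963) and when samples with Y-linked counts were left out (-0.48, adjusted p = 0.227).

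The neighbouring Oas3 (chromosome 5, 120753098 to 120777659, minus strand) had normalised counts of 46.5, 45.7, 140.8 and 133.5 against 148, 156, 233 and 244.5. The genotypes did not overlap here either, although CD1d-KO 3 and 4 came close to WT 1. Its log2 fold change was larger than that of Oas2 but less certain (-1.09 ± 0.47, SE, DESeq2 adjusted p = 0.197), and it was not called. Oasl2, an OAS-like protein that carries ubiquitin-like domains, had 464.9, 515, 1151 and 898 against 985, 999.8, 1165 and 1367 (-0.58, adjusted p = 0.416). Oas1a, Oas1g and Oasl1 had log2 fold changes of -0.32, -0.30 and -0.32, with adjusted p-values of 0.425, 0.628 and 0.534 by DESeq2. Oas1a and Oas1g are 97.6% identical, so reads could be split between them. Of the 6 members of the family, 1 was called lower, against 2.38% of all genes. An unadjusted p under 0.05 was found in 2, against 15.3% of all genes.

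Mx proteins are dynamin-like GTPases that trap viral nucleocapsids. Mx2 (chromosome 16, 97536081 to 97560901, plus strand) had normalised counts of 46.5, 48.6, 90.9 and 75.9 in CD1d-KO against 112, 123, 102 and 100.2 in WT. The genotypes did not overlap, with WT in a narrow range. Mx2 changed by -0.74 ± 0.23 (SE, DESeq2 adjusted p = 0.043) and was called in 4 of 15 alternatives alone. The call was lost without CD1d-KO 1 (adjusted p = 0.186), CD1d-KO 2 (0.223), WT 1 (0.14), WT 2 (0.229), WT 3 (0.096) or WT 4 (0.0766).

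Mx1 had normalised counts of 27.7, 46.7, 46.9 and 51.8 in CD1d-KO against 65.8, 71.3, 77.6 and 62.4 in WT. The genotypes did not overlap, but the difference was not called (-0.68 ± 0.24, SE, DESeq2 adjusted p = 0.0899). The reference strain C57BL/6 is known to carry a defective Mx1 allele, so its transcript does not stand for a working protein there. Whether the Mx2 transcript stands for a working protein in that strain was not examined. The score over both Mx genes did not overlap between the genotypes (-0.88 to -0.03 in CD1d-KO against 0.24 to 0.48 in WT).

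Sp100 (chromosome 1, 85649988 to 85709997, plus strand), a component of PML nuclear bodies, belonged to the members of less defined function. Its normalised counts were 208, 235, 266 and 323 in CD1d-KO against 349.5, 343, 380.0 and 424 in WT. The genotypes did not overlap, and CD1d-KO 4 came close to WT 2. Sp100 fell by 0.54 on the log2 scale (SE 0.14, DESeq2 adjusted p = 0.00994), to 69.0% of the WT mean. Its call was lost without CD1d-KO 1 (adjusted p = 0.0619), CD1d-KO 2 (0.0788) or WT 4 (0.0668), with edgeR (0.0813), with the stomach covariate (-0.07, adjusted p = 0.97) and when samples with Y-linked counts were left out (-0.34, adjusted p = 0.353).

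Ifi44, an interferon-induced cytoplasmic protein of the same group, had normalised counts of 21.5, 19.1, 65.5 and 65.3 in CD1d-KO against 80.5, 56.6, 97.9 and 143 in WT. CD1d-KO 3 and 4 overlapped with WT 2. The log2 fold change was -1.14 ± 0.41 (SE, DESeq2 adjusted p = 0.0884). Xaf1 and Trim30a, which bear on apoptosis and on inflammatory signalling, had -0.45 and -0.28 (adjusted p = 0.398 and 0.763). Of the 7 members of the group, 1 was called lower, against 2.38% of all genes.

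The sensors differed among themselves. Zbp1, which senses Z-form nucleic acids and can trigger necroptosis, had normalised counts of 92.1, 94.3, 255 and 189 in CD1d-KO against 282, 288, 327 and 229 in WT. CD1d-KO 1 and 2 stood well below the rest, and CD1d-KO 3 lay inside the WT range. Zbp1 was not called (-0.84 ± 0.28, SE, DESeq2 adjusted p = 0.0568), and was called without CD1d-KO 3 (-1.17, adjusted p = 0.000153) or without CD1d-KO 4 (adjusted p = 0.0462).

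Ddx58 (RIG-I) and Ifih1 (MDA5), the cytosolic sensors of viral RNA, were at 1305, 1412, 1534 and 1700.0 against 1445, 1532, 1468 and 1658 for Ddx58, and at 1941, 2086, 2112 and 2236 against 1905, 2118, 2184 and 2236 for Ifih1. For Ddx58, CD1d-KO 1 and 2 lay below and CD1d-KO 4 above every WT sample, and for Ifih1 the CD1d-KO samples lay within the WT range. The 95% interval of the log2 fold change was -0.22 to 0.15 for Ddx58 and -0.16 to 0.14 for Ifih1. Dhx58 (LGP2), which modulates both, had -0.32 (DESeq2 adjusted p = 0.494). DESeq2 called 0 of the 4 sensors, against 4.03% of all genes. Zbp1 was the only sensor whose unadjusted p lay under 0.05, as in 15.3% of all genes.

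IFIT proteins bind viral RNA that lacks the marks of host messenger RNA. Ifit1 had normalised counts of 19.7, 50.5, 154 and 144 in CD1d-KO against 96.2, 136, 166 and 121 in WT. CD1d-KO 1 and 2 were the lowest samples, while CD1d-KO 3 and 4 lay inside the WT range, and the log2 fold change was -0.50 ± 0.63 (SE, DESeq2 adjusted p = 0.817). Ifit2 had 106, 94.3, 113 and 97.9 against 132, 116, 116 and 119. Here the genotypes did not overlap, yet the difference was small (-0.23 ± 0.16, adjusted p = 0.532). Ifit3 and Ifit3b had -0.41 and 0.48 (adjusted p = 0.586 and 0.636), and since their transcripts are 97.2% identical, reads could be split between them. DESeq2 called 0 of these 4 genes (4.03% of all genes), and 0 reached an unadjusted p under 0.05 (15.3% of all genes).

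Among the remaining effectors none was called, with log2 fold changes from -0.61 to 0.11. Bst2 (tetherin), which holds budding virus at the cell surface, had normalised counts of 143, 151, 235 and 156.5 in CD1d-KO against 196, 172, 214 and 277.5 in WT (-0.33 ± 0.20, SE, DESeq2 adjusted p = 0.452). CD1d-KO 3 lay above 3 WT samples, and the other CD1d-KO samples below all 4. Eif2ak2 (PKR), the kinase that shuts down translation on viral RNA, had -0.07, with a 95% interval of -0.22 to 0.07. Rsad2 (viperin), which makes a chain-terminating nucleotide, was the least expressed member, with 8.05 to 37.4 normalised counts against 29.3 to 37.8 (-0.61, adjusted p = 0.523). Its neighbour Cmpk2, a mitochondrial nucleotide kinase, had 0.09, Isg20, an RNA exonuclease, 0.11, Samd9l, a restriction factor, -0.07, and Rtp4, an interferon-induced protein that also chaperones receptors, -0.47. DESeq2 called 0 of these 7 effectors (4.03% of all genes), and 0 reached an unadjusted p under 0.05 (15.3% of all genes).

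The 5 members with the highest level had small differences. Per kilobase of exon and 1000000 counted fragments, members had a median level of 2.93 against 7.20 for all tested genes, and 14 of 38 lay above that. The highest were Lgals3bp (156), a secreted glycoprotein, Ifi35 (31.6), Parp9 (23.8), Epsti1 (23.3) and Dtx3l (22.8), and Rsad2 was the lowest (0.246). Lgals3bp had normalised counts of 8746, 8614, 10421 and 9639 in CD1d-KO against 10060.0, 10216, 10231 and 10831 in WT. CD1d-KO 3 lay inside the WT range, and the log2 fold change was -0.14 ± 0.07 (SE, DESeq2 adjusted p = 0.317; 0.0391 without CD1d-KO 3).

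Ifi35, a partner of NMI in cytokine signalling, had 1004, 1009, 1290.0 and 1271 normalised counts against 1211, 1379, 1362 and 1345 (-0.21 ± 0.10, SE, DESeq2 adjusted p = 0.292). Epsti1 had 1439, 1432, 1606 and 1511 against 1486, 1577, 1667 and 1729 (-0.11 ± 0.07, adjusted p = 0.535). In both, CD1d-KO 3 and 4 lay inside the WT range. Of the 12 members whose WT mean reached 1000 normalised counts, 1 was called (Parp14, -0.53). Their median log2 fold change was -0.16 (-0.58 for Oasl2 to -0.01 for Ifih1). Of the 26 below 1000, 4 were called, with a median of -0.46 (-2.36 to 0.48). Over all genes, 4.84% and 3.48% were called in these ranges.

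In all, the genotypes did not overlap in 8 members, all lower in CD1d-KO, and in 0 members was CD1d-KO above WT. Over all genes tested, 5.52% lay entirely lower and 4.09% entirely higher. The 8 were the 5 called members with Oas3, Ifit2 and Mx1.

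Interferon ligands were almost not detected in these libraries. Of 21 ligand genes 18 had 0 counts in every sample, which allows up to 3 counts per library, and 0 were tested. Ifng had 3 raw counts in WT 1 and 0 in the other 7 samples. Ifnk had at most 3 counts in a sample, and Ifna7 had 1 count in WT 1. Ligands made by cells outside the sort were not measured.

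Parts of the signalling pathway were lower in CD1d-KO. Of 19 tested genes of interferon receptors and signalling, 6 were called lower (Socs3, Stat2, Irf9, Irf7, Irf1 and Irf3) and 1 higher (Ifngr1), against 2.38% of all genes called lower and 1.65% higher, with a median log2 fold change of -0.21. Stat2 had normalised counts of 947, 963, 1269 and 1219 in CD1d-KO against 1673, 1614, 1602 and 1555 in WT (-0.55 ± 0.10, SE, DESeq2 adjusted p = 1.94e-05). Irf9 had 1011, 1047, 1087 and 1182 against 1582, 1478, 1328 and 1517 (-0.45 ± 0.08, adjusted p = 9.16e-06). For both, every CD1d-KO sample lay below every WT sample, and CD1d-KO 3 and 4 were not in the WT range. Both were called when samples with Y-linked counts were left out (-0.37 and -0.38, adjusted p = 0.00399 and 0.0187), and both lost their call with the stomach covariate (-0.41 and -0.43, adjusted p = 0.5 and 0.332).

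Irf7, which amplifies interferon production, had a log2 fold change of -0.48 (DESeq2 adjusted p = 0.0318) and lost its call when CD1d-KO 1 or 2 or WT 1, 2 or 4 was left out (up to 0.149, without CD1d-KO 2). Irf1, a factor induced by interferon gamma, had -0.33 (adjusted p = 0.000465), and Socs3, a feedback inhibitor of cytokine receptors, had -1.10 (6.44e-07). Irf3 had -0.22 (adjusted p = 0.0276) and lost its call when CD1d-KO 1 or 2 or WT 1, 2 or 3 was left out (up to 0.143, without CD1d-KO 1). Ifngr1, the interferon gamma receptor chain, rose by 0.26 (adjusted p = 0.00462; 0.0548 without CD1d-KO 2), while Ifnar1, a chain of the type I receptor, had -0.01 and Ifnlr1, a chain of the type III receptor, -0.21 (adjusted p = 0.968 and 0.176). When samples with Y-linked counts were left out, DESeq2 called 0 of Irf7, Irf1, Socs3, Irf3 and Ifngr1 (adjusted p = 0.0647 to 0.438), and with the stomach covariate it called Socs3 (0.0117) but not the other 4 (0.422 to 0.897).

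Of 12 tested adaptors and sensors upstream of interferon, 2 were called lower, against 2.38% of all genes. They were Sting1, the adaptor for cytosolic DNA (-0.92 ± 0.22, SE, DESeq2 adjusted p = 0.00178), and Ikbke, a kinase that activates IRF3 and IRF7 (-0.32 ± 0.07, adjusted p = 0.00123). Sting1 lost its call with edgeR (adjusted p = 0.0558), and Ikbke with the stomach covariate (0.528) and without the samples that had Y-linked counts (0.0608). Mavs, the adaptor of RIG-I and MDA5, had -0.11 (adjusted p = 0.646), and Tlr3 -0.01 (0.987).

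Among 40 tested antiviral genes outside the 38 members, 11 were called lower and 0 higher, against 2.38% and 1.65% of all genes, with a median log2 fold change of -0.25. Mov10, an RNA helicase that restricts retroelements, had 958, 1172, 1152 and 1123 normalised counts in CD1d-KO against 1739, 1884, 1565 and 1674 in WT (-0.64 ± 0.09, SE, DESeq2 adjusted p = 4.52e-10). All 4 CD1d-KO samples were low to a like degree, and Mov10 was called in all 15 alternatives. Uba7, the activating enzyme for ISG15, had 934, 848, 1079 and 1114 against 1614, 1544, 1610.0 and 1238 (-0.60 ± 0.11, adjusted p = 2.38e-05). Slfn5 (-1.35, adjusted p = 6.09e-05), Sp110 (-1.24, 3.81e-05), Helz2 (-0.41, 3.35e-05), Parp10 (-0.38, 4.01e-05), Adar (-0.31, 5.94e-05) and Znfx1 (-0.26, 0.00171) fell and were called whichever sample was left out. These 6 and Uba7 lost their call with the stomach covariate (DESeq2 adjusted p = 0.473 to 0.832), and Parp10, Adar and Znfx1 also when samples with Y-linked counts were left out (0.0536, 0.0618 and 0.207).

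The calls of 3 others of the 11 depended on single libraries. Ifitm3, which blocks virus entry, had -0.55 (DESeq2 adjusted p = 0.00708), with 0.0556 without CD1d-KO 2 and 0.0511 without WT 1. Phf11d had -0.89 (adjusted p = 0.0156) and lost its call when CD1d-KO 1 or 2 or WT 1, 3 or 4 was left out (up to 0.0975, without WT 4). For Ifi203, CD1d-KO samples held 2, 0, 0 and 0 raw counts and WT samples 14, 5, 10 and 3, too few for a fold. Its call (adjusted p = 0.039) was lost when CD1d-KO 2 or 4 or WT 1 or 2 was left out (up to 0.188, without WT 1).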

How the data were processed

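Poly(A) RNA-seq counts of 8 samples, 4 per genotype as labelled, were used. The authors deposited raw fragment counts per gene without normalisation, made per the file headers with featureCounts 1.6.4 (paired fragments, exons, primary alignments, no strand) on an mm10 annotation, while the submitters' processing notes name HISAT2 and GRCm39. The table had 0 unused per-sample columns. Normalised counts are counts divided by DESeq2 size factors. Genotypes were compared with DESeq2 1.42.0 (R 4.3.3), the study's tool, with genotype as the only term and Benjamini-Hochberg adjustment over 15446 genes left by independent filtering (mean normalised count above 2.41). Alternatives included edgeR 4.0.16, leaving out each sample and a stomach score covariate. The code was tested on simulated data. Intervals of fold changes are 95%. Counting error is about 10% of a count of 100 and covers counting only. The study's methods give 4 WT and 4 CD1d-KO mice for these samples. Members and lists were chosen with earlier results of these data known. Full statistics are given for called members, the 5 with the highest level per length and the most extreme member of each role group, and for called genes of the signalling lists, Stat2, Irf9, Irf7, Ifng and Cd1d1. Some genes that the rule or the marker lists name are not reported here. Copies are transcripts of at least 90% identity over at least 50% of the length (Mx2 was not checked).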

Additional observations from a re-analysis of the deposited data

Results flagged for a closer look

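Among 78 comparisons of an extreme sample with the rest of its genotype, for the 38 members and their score, 2 samples lay far from the other 3, where chance flags about 1 in 20. Ifit2 was at 131.6 normalised counts in WT 1, a gap of 0.852 of the range of WT samples. Bst2 was at 234.6 normalised counts in CD1d-KO 3, a gap of 0.853 of the range of CD1d-KO samples. Neither gene was called.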

How the results depend on the processing

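Of the 5 members called, edgeR's quasi-likelihood test called 2 (1.07% of all genes as lower, 14 members at an unadjusted p under 0.05), the samples without Y-linked counts 2 and the stomach covariate 0. For these fits, shares of all genes at an unadjusted p under 0.05 or with a value below 0 are not given. When each sample was left out in turn, 2 to 11 members were called. The 20 called of 71 tested genes of the signalling and other antiviral lists (4.03% of all genes) became 13 of 67 with edgeR (1.66%), 4 of 68 with the stomach covariate (0.659%) and 8 of 69 without the samples with Y-linked counts (2.57%), and ranged from 14 to 23 when each sample was left out. The score difference of -0.48 became -0.13 without Y-linked counts and ranged from -0.61 to -0.34 when each sample was left out. With the stomach covariate 18 of 38 members had a value below 0, against 35. Among the members given full statistics, Ifi35 turned to 0.02, Epsti1 to 0.01 and Dtx3l to 0.01. The cause was not tested. Cd1d1 was called in all 15 alternatives (DESeq2 or edgeR adjusted p = 7.58e-19 to 0.000942).

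Samples with the same number did not pair by the labels. Their deviations from the genotype means correlated at 0.28, 0.02, 0.22 and 0.00 over the 4 pairs, and not every sample correlated best with its own number. With the number as a replicate block, 8 members were called (2.17% of all genes as lower), 4 of them shared. Ifi44, Oas3, Parp12 and Zbp1 were added and Mx2 was lost. Counts under 100 in several members (Ubd, Rsad2, Ifit3b) limit the precision of their fold changes.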
